A study of Mus musculus with 18 samples.

Results

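The 6 genes that set whether a neuron can release glutamate or GABA were followed through 2 brain structures, the ventral tegmental area (VTA) and the nucleus accumbens (NAc), of mice classed by their behaviour after social defeat. They were taken as every probe whose symbol in the platform's probe-to-gene table was Slc17a6, Slc17a7, Slc17a8, Slc32a1, Gad1 or Gad2. That rule found 9 probes among 28482 named probes, and 6 genes among 17274 named genes, and it used no measured value. Gad1 had 4 probes and each other gene had 1.

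The animals were male c57bl/6J mice of 10.5 weeks with no transgene or drug named. They formed 3 behaviour groups, non-defeated controls, defeated mice classed as susceptible and defeated mice classed as unsusceptible. In each behaviour group the NAc and the VTA were both sampled, which gave 6 groups of 3 pools, and each pool joined tissue of 4 animals on 1 of 18 one-colour arrays run at one time. The p-values below measure the spread between pools, not between animals. RNA came from tissue, not from sorted cells, so fewer cells of a type and less RNA per cell cannot be told apart.

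Vesicular glutamate transporters load glutamate into synaptic vesicles, and a neuron that has one can release glutamate. Slc17a7 (VGLUT1) is typical of neurons of the cerebral cortex and hippocampus, Slc17a6 (VGLUT2) of neurons of the thalamus, midbrain and brainstem, and Slc17a8 (VGLUT3) of scattered neurons that mostly release another transmitter too. Gad1 (GAD67) and Gad2 (GAD65) are the glutamate decarboxylases that make GABA, and Slc32a1 (VGAT) loads GABA and glycine into vesicles. Most NAc neurons are GABAergic medium spiny neurons, whose glutamate inputs come from cell bodies elsewhere. The VTA holds dopamine, GABA and glutamate neurons side by side.

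Levels are log2 intensities after quantile normalisation over the 18 arrays. The scanner values of the 18 arrays had medians from 148.3 to 253.1, NAc unsusceptible pool 3 being the brightest, and none of the 153 array pairs was identical. Marker lists fitted the dissections, with 6 of 6 measured medium spiny markers lower in the VTA than in the NAc (median -3.68 log2) and 6 of 6 dopamine markers higher (median 4.18). VTA unsusceptible pool 3 stood apart, with a summed dopamine marker intensity of 12661 where the other 8 VTA pools lay between 48299 and 81161. The next lowest was VTA unsusceptible pool 1, at 48299. The sum of diencephalic and midbrain excitatory markers in VTA unsusceptible pool 3 was the highest in the VTA, at 14983. The main results that rest on it are given with and without it. NAc control pool 3 stood apart by a low array weight of 0.587, and the median probe mean, below which a probe is called dim, was 7.39 log2.

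The question put to the whole set was which transmitter genes separate the 2 structures and whether any of them differs with behaviour. Across all pools, 5 of the 6 genes differed between VTA and NAc by limma's moderated test with Benjamini-Hochberg adjustment over 44505 probes, and 7 of the 9 probes did so, against a background of 28% of all probes tested (14.6% higher and 13.5% lower in the VTA). Slc17a6 was higher in the VTA. Slc17a7, Slc32a1, Gad1 and Gad2 were lower there, and Slc17a8 did not pass. Among the 3 control pools of each structure, 4 of 6 genes and 6 of 9 probes passed, against a background of 19.4%. No member passed in a comparison between behaviour groups.

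**Figure D1:**
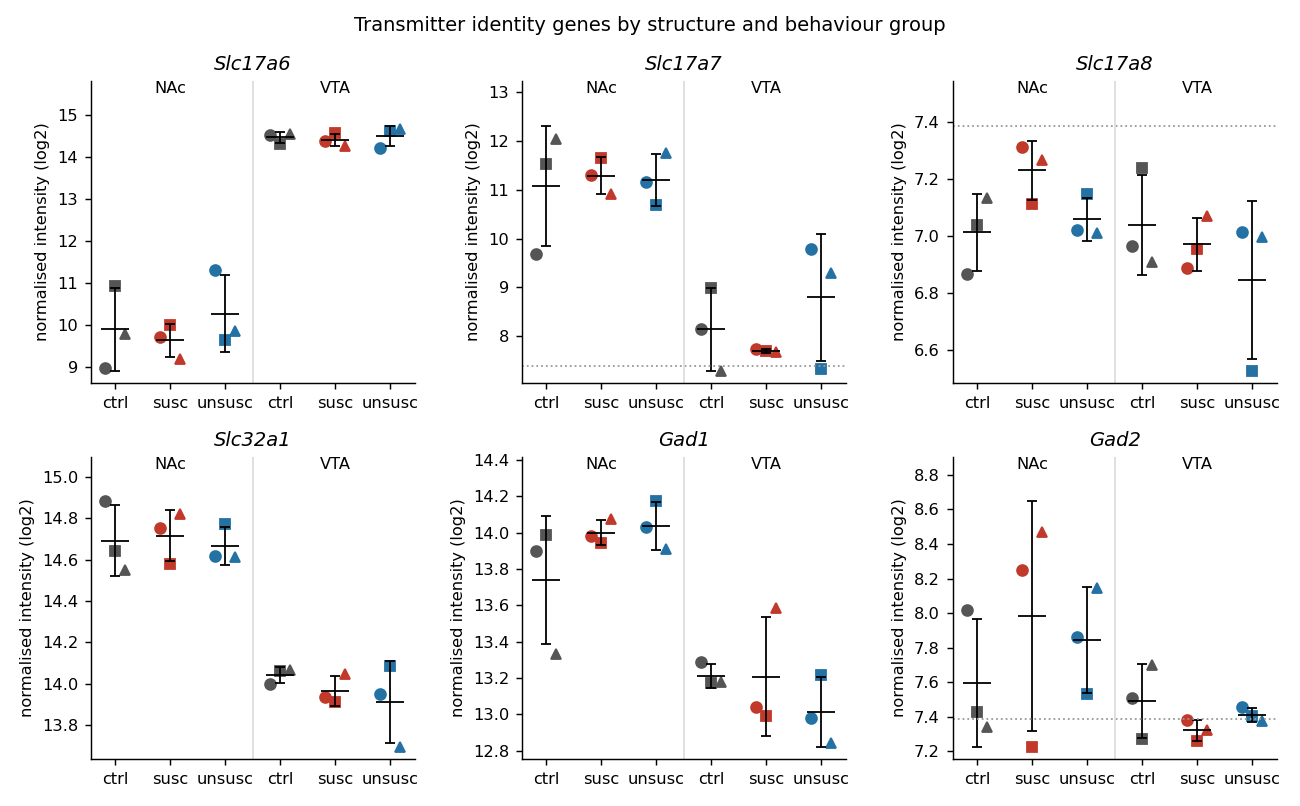
Log2 intensity of the brightest probe of each gene in the 18 pools, with the 6 groups on the horizontal axis (grey control, red susceptible, blue unsusceptible, and circle, square and triangle for pools 1, 2 and 3). Bars are the mean ± SD of 3 pools and the dotted line is the median probe mean of 7.39. Slc17a6 sits above 14 in every VTA pool, and Slc17a7 spreads widely in both structures.

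Slc17a6 had the biggest difference between the structures among the 6 genes. In the NAc its levels were 8.97, 10.94 and 9.78 in control pools 1 to 3, 9.71, 9.99 and 9.19 in susceptible pools, and 11.32, 9.65 and 9.86 in unsusceptible pools. In the VTA they were 14.54, 14.31 and 14.56 in control, 14.39, 14.57 and 14.27 in susceptible and 14.23, 14.63 and 14.66 in unsusceptible pools. Every VTA pool was far above every NAc pool, and 6.18% of all probes separated the structures that way. The VTA mean exceeded the NAc mean by 4.53 ± 0.20 log2 (SE, 9 against 9 pools), a 23.1-fold difference with a limma adjusted p of 1.94e-15. Among control pools alone the difference was 4.57 ± 0.35 (adjusted p 2.71e-10). The VTA pools spanned only 1.35-fold from the lowest to the highest, whereas the NAc pools spanned 5.09-fold. NAc unsusceptible pool 1 and NAc control pool 2 were the high pools there. Beside it, 4 of 5 measured markers of diencephalic and midbrain excitatory neurons were higher in the VTA and none was lower (median 0.67). Their summed intensity ran from 1157 to 1305 over the NAc groups and from 2296 to 14983 over the VTA groups (to 6939 without VTA unsusceptible pool 3), and Shox2 (2.94 ± 0.27) and Tcf7l2 (2.39 ± 0.21), both transcription factors of thalamic and midbrain neurons, led the list. Without that pool, 3 of 5 were higher (median 0.64), Shox2 by 2.72 ± 0.22 and Tcf7l2 by 2.17 ± 0.15. Over the 9 pools of each structure, Slc17a6 did not pass against the mean of these markers (exact permutation test, adjusted over 132 relations). Pearson's r was 0.25 in the VTA (adjusted p 0.778) and 0.26 in the NAc (adjusted p 0.776). The part of these markers in the Slc17a6 difference between the structures was not tested.

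Slc17a7 ran the opposite way. Its NAc levels were 9.68, 11.52 and 12.03 in control, 11.30, 11.66 and 10.91 in susceptible and 11.17, 10.68 and 11.76 in unsusceptible pools. Its VTA levels were 8.15, 8.97 and 7.28 in control, 7.74, 7.70 and 7.66 in susceptible and 9.78, 7.31 and 9.28 in unsusceptible pools. NAc control pool 1 was far below the other NAc pools, and VTA unsusceptible pools 1 and 3 were the highest of the VTA. VTA unsusceptible pool 1 was slightly above NAc control pool 1, so that 8 of the 9 VTA pools, not all, lay below every NAc pool. The VTA mean was lower by 2.98 ± 0.29 log2, or 7.90-fold higher in the NAc (limma adjusted p 5.63e-09). Among control pools the NAc mean was 7.70-fold higher (adjusted p 7.78e-05). VTA control pool 3 and VTA unsusceptible pool 2 lay under the median probe mean, among the dim probes. Whether background was subtracted from the deposited intensities is not given in the sources, and if it was not, a log2 difference understates the change of a dim probe.

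Slc17a8 was dim in both structures. Its NAc levels were 6.87, 7.04 and 7.13 in control, 7.31, 7.11 and 7.27 in susceptible and 7.02, 7.15 and 7.01 in unsusceptible pools. The VTA levels were 6.97, 7.24 and 6.91 in control, 6.89, 6.95 and 7.07 in susceptible and 7.01, 6.53 and 7.00 in unsusceptible pools. All 18 values were below the median probe mean and the structures overlapped. The difference of -0.15 ± 0.07 log2 (VTA minus NAc) did not pass (limma adjusted p 0.116), and without VTA control pool 2 it was -0.18 with an adjusted p of 0.0485.

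By their brightest probes, the 3 GABA genes were higher in the NAc over all pools, by much smaller steps. Slc32a1 read 14.88, 14.64 and 14.55 in NAc control, 14.75, 14.58 and 14.82 in NAc susceptible and 14.62, 14.77 and 14.61 in NAc unsusceptible pools. In the VTA it read 14.00, 14.06 and 14.07 in control, 13.94, 13.91 and 14.05 in susceptible and 13.95, 14.09 and 13.70 in unsusceptible pools. No VTA pool reached the lowest NAc pool, and 5.35% of all probes separated in that direction. The NAc mean of 14.69 ± 0.12 (SD, n = 9) was 1.65-fold higher than the VTA mean of 13.97 ± 0.12 (limma adjusted p 2.88e-11). Among control pools it was 1.57-fold higher (adjusted p 5.52e-06), a call that was lost when arrays were scaled by their medians in place of quantile normalisation (adjusted p 0.214).

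Gad1, the decarboxylase that supplies most GABA for metabolism and tonic release, was read by 4 probes. Its brightest probe, 3140167, gave 13.90, 13.99 and 13.33 in NAc control, 13.98, 13.94 and 14.08 in NAc susceptible and 14.03, 14.17 and 13.91 in NAc unsusceptible pools. In the VTA it gave 13.29, 13.17 and 13.18 in control, 13.04, 12.99 and 13.59 in susceptible and 12.98, 13.22 and 12.84 in unsusceptible pools. NAc control pool 3 was the low pool of the NAc and VTA susceptible pool 3 the high pool of the VTA, and these alone overlapped. The NAc mean was 1.72-fold higher (difference of -0.78 ± 0.08 log2, VTA minus NAc, limma adjusted p 1.87e-08).

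The other Gad1 probes did not all give the same step. Probe 2360035 differed by -1.09 ± 0.07 log2 (adjusted p 1.67e-12) and probe 101240020 by -1.05 ± 0.06 (adjusted p 1.18e-12). In both, every VTA pool was below every NAc pool, as in 5.35% of all probes. Probe 101190273 was dim and differed by 0.01 ± 0.06 (adjusted p 0.95). Thus 3 of the 4 Gad1 probes passed, between 1.72-fold and 2.13-fold. Among control pools the brightest probe differed by -0.53 ± 0.14 (adjusted p 0.00766). That call was lost with median scaling (-0.22, adjusted p 0.67) and without NAc control pool 2 (-0.40, adjusted p 0.0661), while without NAc control pool 3 the difference was -0.73 (adjusted p 0.00017). In the same main fit of control pools, probe 2360035 differed by -0.94 ± 0.12 (adjusted p 1.17e-06) and probe 101240020 by -1.03 ± 0.11 (adjusted p 1.19e-07). By both of these probes, as by the brightest, every VTA control pool was below every NAc control pool. The share of all probes that separated the control pools in this way is not given here. The dim probe did not pass there (0.10 ± 0.10, adjusted p 0.593).

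Gad2, the decarboxylase found mostly at nerve terminals, was read by 1 probe only slightly brighter than the median probe. Its NAc levels were 8.02, 7.43 and 7.34 in control, 8.25, 7.23 and 8.47 in susceptible and 7.86, 7.53 and 8.15 in unsusceptible pools. The VTA levels were 7.51, 7.27 and 7.70 in control, 7.38, 7.26 and 7.32 in susceptible and 7.45, 7.40 and 7.37 in unsusceptible pools. The NAc pools were widely spread and overlapped the VTA pools, which lay close together. Gad2 passed over all pools, with a NAc mean 1.32-fold higher (-0.40 ± 0.12 log2, VTA minus NAc, limma adjusted p 0.0146), and did not pass among control pools (-0.10 ± 0.21, adjusted p 0.836).

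**Figure D2:**
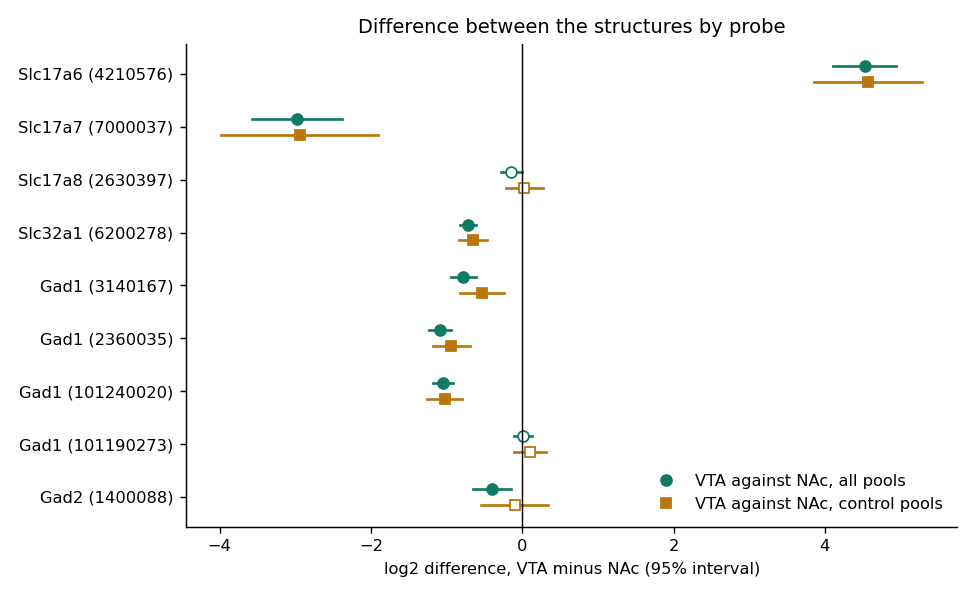
Difference in log2 level, VTA minus NAc, for each of the 9 probes over all 18 pools (circles) and among the control pools (squares). Bars are 95% intervals from the limma fit, and filled points passed the adjusted threshold of 0.05. Over all pools Slc17a6 lies at 4.53 and Slc17a7 at -2.98, whereas the GABA probes that passed lie between -0.40 and -1.09.

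Whether the GABA genes shifted by the same step was tested within arrays, by an exact two-sided permutation test of 9 against 9 pools over 48620 arrangements, adjusted over 3 pairs. The log2 difference Slc32a1 minus Gad1 was 0.83 ± 0.15 in the VTA and 0.77 ± 0.21 in the NAc (SD, n = 9), an increase of 0.06 with an exact p of 0.481. Gad2 minus Gad1 was higher by 0.38 in the VTA (exact p 0.0355, adjusted p 0.0571), and Gad2 minus Slc32a1 by 0.32 (exact p 0.0381, adjusted p 0.0571). None of the 3 pairs passed after adjustment, and 2 of 3 had an unadjusted p under 0.05. With 50 added to every intensity before log2, 2 of 3 passed.

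That outcome depended on the Gad1 probe. In an alternative added after seeing the data, Slc32a1 minus Gad1 was higher in the VTA by 0.37 with probe 2360035 (exact p 0.000165, adjusted p 0.000494) and by 0.33 with probe 101240020 (exact p 0.000123, adjusted p 0.000185), and all 3 pairs passed with either probe. Gad2 minus Slc32a1 holds no Gad1 value, and its exact p stayed at 0.0381. It passed (adjusted p 0.0381) only because the adjustment runs over the 3 pairs together. Whether Slc32a1 and Gad1 shifted by the same step is therefore not settled by these probes. The Gad2 probe was close to the median probe mean, with 5 of its 9 VTA pools below it. The part of dimness in the Gad2 differences was not tested.

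The promoters of the 4 members with the clearest step between the structures are shown as the 250 bases before the RefSeq start in GRCm38.p6, all on the plus strand, because these genes moved in opposite directions. Capitals mark matches on either strand to the GC box with letters GGGCGG or to the TATA element with letters TATAAA, and other motifs searched are named after the sequences.
Slc17a6: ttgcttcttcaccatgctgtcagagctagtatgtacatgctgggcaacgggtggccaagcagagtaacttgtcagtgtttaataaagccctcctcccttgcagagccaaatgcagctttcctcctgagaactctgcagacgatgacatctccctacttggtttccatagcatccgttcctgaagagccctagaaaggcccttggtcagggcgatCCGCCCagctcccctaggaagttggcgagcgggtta
Slc17a7: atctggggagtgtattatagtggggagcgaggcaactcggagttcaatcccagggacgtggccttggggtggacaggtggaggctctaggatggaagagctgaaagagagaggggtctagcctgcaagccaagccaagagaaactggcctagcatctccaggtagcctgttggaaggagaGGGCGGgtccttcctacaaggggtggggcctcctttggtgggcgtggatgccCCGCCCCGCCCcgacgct
Slc32a1: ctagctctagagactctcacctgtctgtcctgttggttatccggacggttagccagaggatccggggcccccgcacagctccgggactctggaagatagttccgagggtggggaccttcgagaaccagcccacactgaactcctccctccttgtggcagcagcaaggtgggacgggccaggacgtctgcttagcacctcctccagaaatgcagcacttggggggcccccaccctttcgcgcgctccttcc
Gad1: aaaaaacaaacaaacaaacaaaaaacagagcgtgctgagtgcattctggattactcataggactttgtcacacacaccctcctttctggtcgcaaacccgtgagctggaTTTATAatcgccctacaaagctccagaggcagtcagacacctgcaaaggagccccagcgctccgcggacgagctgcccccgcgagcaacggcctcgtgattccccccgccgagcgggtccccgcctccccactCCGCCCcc
The windows are chr7:51621580-51621829 for Slc17a6 (the earlier of 2 starts), chr7:45163671-45163920 for Slc17a7, chr2:158610508-158610757 for Slc32a1 and chr2:70561879-70562128 for Gad1. Slc17a7 had 3 GC boxes, of which the last 2 overlap by 1 base, Slc17a6 and Gad1 had 1 each, and Gad1 alone of these had TATA letters, as TTTATA. The E-box form CAGCTG, the second E-box form CAGATG and the cyclic AMP response element TGACGTCA were searched on both strands and not found in these 4 windows. Of 32851 promoter windows of the same length, 32.7% held a GC box, 12.4% the TATA element, 13.0% the first E-box form, 14.4% the second and 1.55% the response element. The number of CG dinucleotides was 7 for Slc17a6, 9 for Slc17a7, 12 for Slc32a1 and 17 for Gad1, where the median over all windows was 6. The matches describe letters in the windows and were not tied to any factor.

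Genes that supply and clear the transmitters also differed between the structures. Of 12 genes of glutamate supply and uptake, 11 were measured, and 6 were higher and 3 lower in the VTA over all pools (median 0.22 log2, where the median of all probes was -0.0013). The lower ones included Slc1a3 (-0.75 ± 0.05, adjusted p 1.13e-11), the glial glutamate transporter GLAST, and Slc1a1 (-0.45 ± 0.05, adjusted p 1.13e-07), the neuronal transporter EAAC1. The higher ones included Slc38a2 (0.31 ± 0.06, adjusted p 5.82e-05), a glutamine transporter, and Got2 (0.25 ± 0.04, adjusted p 1.17e-05), the mitochondrial aspartate aminotransferase.

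Of 7 genes of GABA uptake and breakdown, 5 were measured, and 3 were higher and none lower in the VTA (median 0.38), and 4 of 5 were higher without VTA unsusceptible pool 3. Slc6a11, the GABA transporter GAT3 found mainly on astrocytes, was higher by 2.12 ± 0.10 log2 (limma adjusted p 3.84e-15). Aldh5a1, which removes the breakdown product succinic semialdehyde, was higher by 0.38 ± 0.05 (adjusted p 6.72e-07), and the dim probe of Slc6a12 by 0.38 ± 0.11 (adjusted p 0.0124). Abat, the GABA transaminase, differed by 0.16 ± 0.07 and did not pass (adjusted p 0.0824). The 3 that passed thus differed in the opposite direction to Slc32a1 and Gad1. All 4 astrocyte markers were also higher in the VTA (median 1.00), with a summed intensity of 17326 to 20980 over the NAc groups and 28078 to 31708 over the VTA groups, and their part in the Slc6a11 difference was not tested. The glial glutamate transporter gene Slc1a3 differed in the opposite direction to these markers (-0.75 ± 0.05).

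The genes whose profiles over the 18 arrays were most like those of Slc17a6 and Slc17a7 were found by the root mean square difference of centred log2 levels, among 11596 genes whose brightest probe was not dim. For Slc17a6 they were Cbln1 (0.426 log2), Calb2 (0.603), Aldh1a1 (0.608), Chrna4 (0.633) and Igsf1 (0.642). Cbln1 encodes the synaptic organiser cerebellin, Calb2 the calcium buffer calretinin and Chrna4 a nicotinic receptor subunit. They were higher in the VTA by 3.99, 3.55, 4.12, 3.63 and 3.70 log2, in that order. For Slc17a7 they were Rasgrp1 (0.638), Ptk2b (0.67), Nrgn (0.681), Neurod2 (0.681) and Camk2a (0.697), with differences between the structures of -2.98, -3.35, -2.68, -2.01 and -2.62. The other members had no difference of 1 log2 by their brightest probe, so likeness was not computed for them. Because the profiles span both structures, likeness largely follows a similar step between VTA and NAc. It does not show that genes vary together over the pools of 1 structure.

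Within each structure the members did not differ between behaviour groups by the test used. Over 9 probes and 6 comparisons, limma called 0 of 54 tests after adjustment, and 4 of 54 had an unadjusted p under 0.05. The background of called probes was 0.0652% for susceptible against control, 0.00225% for unsusceptible against control and 0.00225% for susceptible against unsusceptible in the NAc. In the VTA it was 0.00225%, 0.00674% and 0%, in the same order. The share of all probes with an unadjusted p under 0.05 was 8.23%, 11.5% and 4.41% in the NAc and 3.46%, 6.85% and 5.54% in the VTA, again in that order. With backgrounds this low a count of 0 members is close to the background, and the intervals below, which are not adjusted for the number of tests, give the precision. Comparisons that share a control or a defeated group are not independent of each other.

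The precision differed strongly between members. For Slc32a1 the 6 differences ran from -0.13 to 0.05 log2, with 95% intervals of ± 0.19 that reached from -0.32 to 0.24. For Gad1 they ran from -0.20 to 0.30 with intervals of ± 0.29 that reached from -0.49 to 0.59, and for Slc17a8, which was dim, from -0.19 to 0.22 with ± 0.24. These were the members with the narrowest intervals. The intervals hold for levels after quantile normalisation. Over the NAc control pools, Slc32a1 intensity ran from 15861.2 to 30562.1 before normalisation, and its level from 14.55 to 14.88 log2 after it.

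Gad2 differences ran from -0.17 to 0.39 with intervals of ± 0.44, and the highest interval end was 0.83. Slc17a6 ran from -0.64 to 0.38 with ± 0.72. Slc17a7 ran from -1.09 to 0.66 with ± 1.04, and its intervals reached from -2.13 to 1.69. Its largest difference, of -1.09, did not pass the adjusted threshold. The smallest adjusted p over the 6 comparisons was 0.421, for Gad1.

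**Figure D3:**
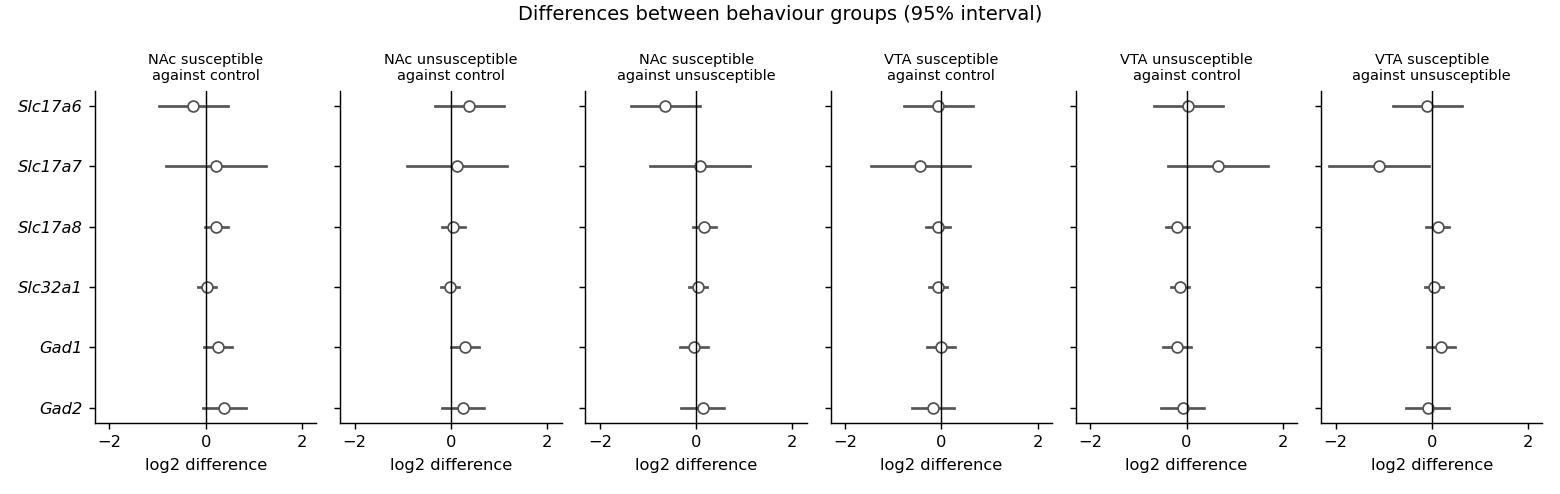
Differences between behaviour groups in log2 level for the brightest probe of each gene, 1 panel for each of the 6 comparisons, with 95% intervals from the limma fit; open points did not pass the adjusted threshold. All points are open, and the Slc17a7 intervals are the widest, at ± 1.04 log2.

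The smallest p-values of the brightest probes came from 2 comparisons. Slc17a7 in the VTA was lower in susceptible (7.70 ± 0.04, SD, n = 3) than in unsusceptible pools (8.79 ± 1.31, n = 3), by 1.09 ± 0.50 log2 with an unadjusted p of 0.0395 in limma and an adjusted p of 0.897. The 3 susceptible pools were nearly equal, and unsusceptible pool 2 lay below all of them while pools 1 and 3 lay far above, so the groups overlapped. Without unsusceptible pool 1 the difference was -0.60, and without pool 2 it was -1.84. The mean cortical marker level in those pools was 8.40, 7.98 and 7.85 log2 in unsusceptible and 7.86, 7.96 and 8.04 in susceptible pools, and its part in the difference was not tested.

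Gad1 in the NAc was higher in unsusceptible than in control pools by 0.30 ± 0.14 log2 (limma unadjusted p 0.0451, adjusted p 0.421). Control pool 3 was the lowest of the 6 pools and the groups overlapped, and without this pool the difference was 0.10 (adjusted p 0.891). Under median scaling it was 0.80 with an adjusted p of 0.0408, where 1229 probes were called in all, and without the brightest array under the same scaling it was 0.62 (adjusted p 0.328). Probe 101240020 of Gad1 was higher in NAc susceptible pools than in control pools by 0.28 ± 0.11 (adjusted p 0.491) and than in unsusceptible pools by 0.29 ± 0.11 (adjusted p 0.999). Between NAc unsusceptible and control pools it differed by -0.01 ± 0.11 (adjusted p 0.986). Probe 2360035 differed there by 0.11 ± 0.12 (adjusted p 0.772) and the dim probe by 0.05 ± 0.10 (adjusted p 0.888).

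The effect of defeat was also compared between the structures by an interaction term. For susceptible against control and for unsusceptible against control, limma called 0 of 6 genes, each beside a background of 0%. At an unadjusted p under 0.05 there were 0 and 1 genes, where 6.35% and 10.6% of all probes reached that level. The 1 gene was Gad1, whose change from control to unsusceptible differed by -0.50 ± 0.20 log2 (VTA minus NAc, adjusted p 0.385). Among the genes of glutamate supply and uptake and of GABA uptake and breakdown, none passed in any comparison between behaviour groups.

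Members were then compared with each other across the 9 pools of each structure, by exact permutation tests of Pearson's r over 30 pairs of genes and structures. The pair Slc17a7 and Slc32a1 in the NAc passed, with r = -0.89 (exact p 0.000639, adjusted p 0.0192) and Spearman's rho = -0.92 (exact p 0.00131, adjusted p 0.0394). NAc pools with more Slc17a7 thus had less Slc32a1, with control pool 1 at one end and control pool 3 at the other. Without the 2 pools farthest from the median of Slc17a7, r was -0.80. Leaving out 1 pool ended the call in 4 cases, with an adjusted p of 0.136 without NAc control pool 1, 0.0975 without control pool 3 and 0.0521 without susceptible pool 2 or 3, at r between -0.92 and -0.85. Without the 3 arrays that stood apart r was -0.84 (adjusted p 0.268), and r was 0.16 with median scaling and -0.37 when the brightest array was also left out. Of the other 29 pairs, Slc32a1 and Gad1 in the VTA came next, with r = 0.72 (exact p 0.0397, adjusted p 0.543).

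The same pools were set against the mean level of each marker list, 132 relations chosen after the data had been seen, tested by exact permutation over 9 pools. In the NAc, Slc17a7 rose with the cortical excitatory markers, with r = 0.94 (exact p 0.000273, adjusted p 0.0122) and rho = 0.93 (adjusted p 0.0495), and r was 0.86 without the 2 farthest pools. Slc32a1 fell with them, with r = -0.94 (exact p 0.000121, adjusted p 0.0122) and rho = -0.93 (adjusted p 0.0495). The mean cortical marker level was 8.36, 9.14 and 9.61 log2 in control, 9.12, 9.52 and 8.90 in susceptible and 9.37, 8.84 and 9.65 in unsusceptible NAc pools. Control pool 1, lowest in Slc17a7 and highest in Slc32a1, was lowest in these markers too, and the behaviour groups overlapped. The list had 5 of 7 genes measured, with Emx1 dim, and its summed intensity ran from 1833 to 5807 over NAc control pools, 3407 to 5319 over susceptible and 2679 to 5288 over unsusceptible pools. Between the structures 4 of its 5 measured genes were lower in the VTA, led by Fezf2 (-2.42 ± 0.15), a transcription factor of deep-layer cortical neurons. No marker was at 0, and the lowest intensity of any probe on any array was 61.9.

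Slc17a7 in the NAc also fell as the medium spiny markers rose, with r = -0.87 (exact p 0.000278, adjusted p 0.0122, rho = -0.87 with adjusted p 0.085). Slc32a1 in the NAc fell as the forebrain interneuron markers rose, with r = -0.92 (exact p 0.000416, adjusted p 0.0137, rho = -0.90 with adjusted p 0.0535). With median scaling the relation of Slc32a1 to the cortical markers was 0.32, that to the interneuron markers 0.42, and that of Slc17a7 to the medium spiny markers 0.07. The relation of Slc17a7 to the cortical markers was 0.94 under median scaling when the brightest array was left out (adjusted p 0.0388), and it did not pass without NAc control pool 1 (0.88, adjusted p 0.0935). Without that pool Slc32a1 stood at -0.91 with the cortical (adjusted p 0.0908) and -0.87 with the interneuron markers (adjusted p 0.0935), and Slc17a7 at -0.89 with the medium spiny markers (adjusted p 0.0935), a relation that was also lost without NAc control pool 3 (-0.84, adjusted p 0.0533). Without the 3 arrays that stood apart none of the 4 relations passed, with r from -0.93 to -0.81 for the falling ones and 0.93 for the rising one (adjusted p 0.128 to 0.204).

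**Figure D4:**
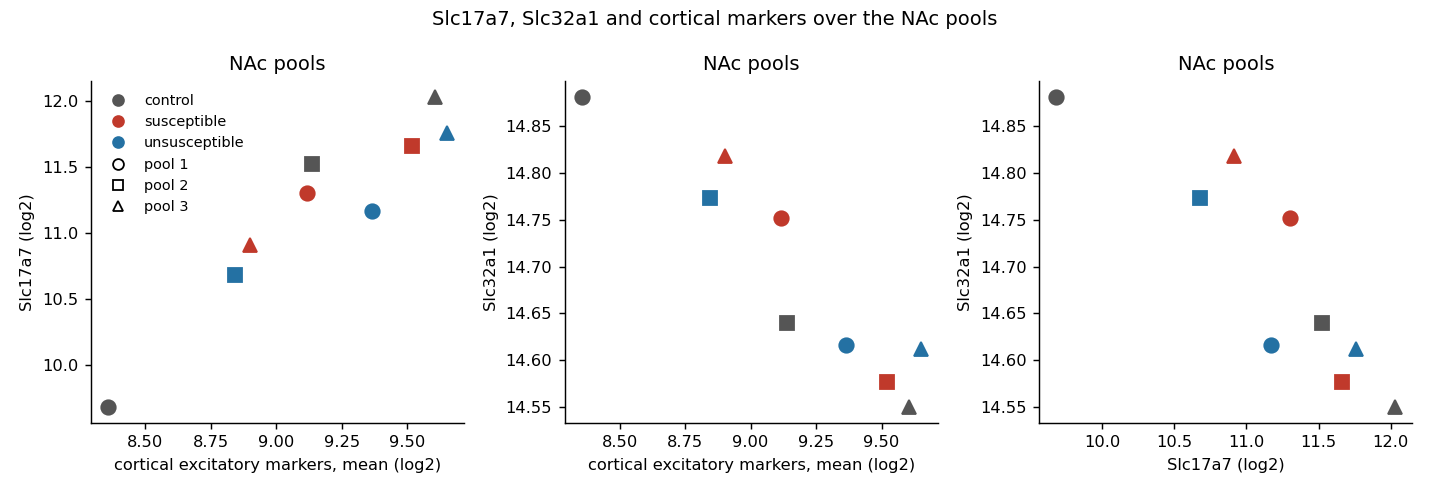
Log2 levels over the 9 NAc pools, with Slc17a7 and Slc32a1 against the mean level of 5 cortical excitatory markers and Slc32a1 against Slc17a7, in the colours and marker shapes of the plot of levels by pool. Control pool 1 is lowest in Slc17a7 and in the cortical markers and highest in Slc32a1.

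In the VTA, Slc32a1 rose with the midbrain and brainstem GABA markers (r = 0.93, exact p 0.000648, adjusted p 0.0155, rho = 0.90 with adjusted p 0.0535). It also rose with the dopamine markers (r = 0.93, exact p 0.00125, adjusted p 0.0236, rho = 0.90 with adjusted p 0.0535). It fell as the diencephalic and midbrain excitatory markers rose (r = -0.95, exact p 0.000705, adjusted p 0.0155, rho = -0.83 with adjusted p 0.0992). All 3 relations leaned on VTA unsusceptible pool 3, the lowest pool in Slc32a1. Without it they were 0.73 (adjusted p 0.168), 0.75 (adjusted p 0.168) and -0.88 (adjusted p 0.121), so none of the 3 passed. The relation to the dopamine markers also missed the threshold without VTA control pool 1 or 3, unsusceptible pool 2 or NAc control pool 1 (adjusted p 0.0538 to 0.0734, r near 0.93), and that to the excitatory markers without VTA control pool 1 (-0.95, adjusted p 0.0538). Slc17a6 in the VTA did not pass against the dopamine markers, with r = -0.31 (exact p 0.528, adjusted p 0.778), and it was at 14.66 in the pool where their mean was 10.66.

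**Figure D5:**
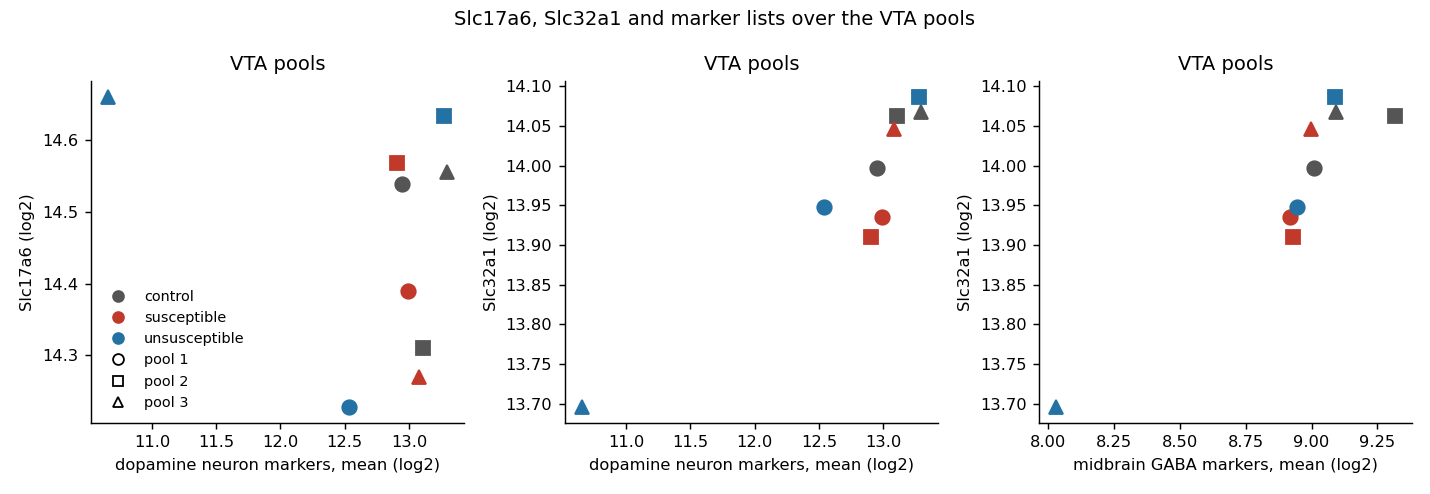
Log2 levels over the 9 VTA pools, with Slc17a6 against the mean of the dopamine markers and Slc32a1 against the means of the dopamine and of the midbrain and brainstem GABA markers. Unsusceptible pool 3 lies at a dopamine marker mean of 10.66, apart from the other 8 pools, with Slc17a6 at 14.66 and Slc32a1 at 13.70.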

How the data were processed

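The authors deposited 1 table per array with a linear intensity per probe (61.9 to 73427.2), without background or detection columns, and a normalised intensity table of the whole series with 3949 missing values, which served as an alternative. Only affy, with no version, appears in the submitters' processing notes. RNA was kit-extracted, amplified linearly and biotin-labelled, per the labels' protocols; scanner software and background steps were not given in the sources used here.

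Of 44547 probes, 42 were empty and 44505 were tested. Intensities were log2-transformed, quantile normalised and fitted with limma 3.58.1 (R 4.3.3), 1 mean per group over 18 arrays with an intensity trend in the prior. Tests were two-sided, with Benjamini-Hochberg adjustment over all probes and a threshold of 0.05. The code was tested on simulated data. Differences carry the model's SE; 3 pools per group limit the precision. If no background was subtracted, log2 changes understate dim probes' changes. The brightest probe stood for its gene. Exact permutation tests and relations used Python 3.11.15 and scipy 1.17.1, and Pearson and Spearman p-values were adjusted over their family. Promoters come from RefSeq (GRCm38.p6), where all 6 members matched.

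Members and lists were chosen with earlier results of these data known. All member probes were named in every comparison, with up to 4 genes of smallest p per pathway or marker list, any list gene past the threshold between behaviour groups, and for likeness the 5 nearest genes of members with a difference of at least 1 log2. Alternatives were median scaling, the authors' table, an offset of 50, averaged probes, bright probes only, no trend, array weights, a replicate block, fits within a structure, leaving out 1 pool or 3 arrays, and the other bright Gad1 probes.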

Additional observations from a re-analysis of the deposited data

Results flagged for a closer look

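Of 18 sets of 9 pools (9 probes in 2 structures), 3 held a pool whose gap to its nearest neighbour, divided by the range of the set, passed Dixon's critical value for 9 values at the 95% level. Chance gives about 1 such set in 20. Gad1 probe 3140167 read 13.33 log2 in NAc control pool 3, where the next pool read 13.90 (ratio 0.671). Of the other Gad1 probes that were not dim, 2360035 read 12.43 in that pool, beside 12.48 and 12.62 in the other control pools. Probe 101240020 read 8.29 there, beside 8.76 and 8.45. Both probes were at their lowest NAc value in that pool, but neither was flagged. Slc17a8 probe 2630397, which is dim, read 6.53 in VTA unsusceptible pool 2, where the next pool read 6.89 (ratio 0.507). Slc32a1 probe 6200278 read 13.70 in VTA unsusceptible pool 3, where the next pool read 13.91 (ratio 0.548), and this pool also had the lowest dopamine marker mean of the VTA, at 10.66.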

How the results depend on the processing

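Over all pools, the 5 member genes called between VTA and NAc were called under every alternative run, replicate block included, and Gad2 lay between -0.52 and -0.32 when 1 pool was left out. Among control pools the count fell from 4 to 2 under median scaling, with or without the brightest array: Gad1 was -0.22 (adjusted p 0.67 and 0.551) and Slc32a1 -0.35 (0.214 and 0.104). The values that did not pass there changed sign when 1 pool was left out: Gad2 from -0.23 to 0.11 and Slc17a8 from -0.074 to 0.089. In NAc unsusceptible against control the count rose from 0 to 1 under median scaling (Gad1). The GABA pairs called were 3 with Gad1 by probe 2360035 or by probe 101240020, 2 with an offset of 50 and 0 to 2 when 1 pool was left out (2 without NAc susceptible 1 or 3 or NAc unsusceptible 3, 1 without VTA susceptible 3). With the other Gad1 probes, Gad2 minus Slc32a1 kept its values and passed only through the joint adjustment.

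The correlated member pairs numbered 0 under median scaling, 0 under it without the brightest array and 0 without the 3 arrays that stood apart (NAc control 3, NAc unsusceptible 3, VTA unsusceptible 3), and 0 to 1 when 1 pool was left out. Under median scaling Slc17a7 with Slc32a1 was 0.16, Slc17a7 with medium spiny markers 0.067, Slc32a1 with cortical markers 0.32 and Slc32a1 with interneuron markers 0.42 (0.069 without the brightest array). The cause was not tested. Median scaling without the brightest array, the other Gad1 probes and the marker relations were chosen after seeing the data.

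Deviations of same-number pools had r from -0.0451 to 0.198 (median 0.0451, 9 of 45 pairs above 0.1), and those of different-number pools a median of -0.015 (2 of 90 above 0.1). Of 18 arrays, 13 were closest to one of their own number, a hint of pairing from the data, not from the design. As most same-number pairs were at or under 0.1, a cut set by choice, the pools were taken to share only a number. The main tests therefore treated pools as independent, and the permutation tests were not run with a replicate block. With the replicate block, 5 of 6 genes were called over all pools, 4 of 6 among control pools and 0 in each behaviour comparison, while calls over all probes went from 29 to 79 in NAc susceptible against control and from 1 to 203 in NAc unsusceptible against control. The signal over background of dim probes is unknown here.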

Other observations

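Markers of neurons that make other transmitters differed between the structures beside the members. Over all pools, 2 of 2 measured serotonin markers were higher in the VTA, with Tph2, the serotonin-making hydroxylase of brain, higher by 3.82 ± 0.43 log2 (limma adjusted p 8.44e-08). Their summed intensity varied widely over the VTA pools. It was 281 in VTA unsusceptible pool 3, within the NAc range of 256 to 324, and 960 to 12211 in the other 8 VTA pools, and without that pool Tph2 was higher by 4.35 ± 0.23. All 4 cholinergic markers were lower in the VTA, led by Slc5a7, the choline transporter, at -1.83 ± 0.08 (adjusted p 5.33e-16). Of 6 measured forebrain interneuron markers, 2 were lower and 2 higher, with Npy at -3.90 ± 0.11 (adjusted p 3.3e-19) and Sst at -1.31 ± 0.07 (adjusted p 3.62e-14) but Pvalb, of fast-spiking neurons, at 2.59 ± 0.23 (adjusted p 1.5e-09). Without VTA unsusceptible pool 3, 1 was higher and 2 lower. Of 5 midbrain and brainstem GABA markers, 4 were higher, with Tal1 at 2.15 ± 0.12 (adjusted p 2.49e-13). All 3 measured oligodendrocyte markers were higher in the VTA (median 0.94), and 1 of 4 blood markers was higher. Between behaviour groups, the myelin genes Mobp (-0.75 ± 0.12, adjusted p 0.0259) and Mog (-0.66 ± 0.10, adjusted p 0.0259) were lower in VTA unsusceptible than in control pools. Without VTA unsusceptible pool 3 they were at -0.58 (adjusted p 0.293) and -0.56 (adjusted p 0.293), and without the 3 arrays that stood apart at -0.59 (0.208) and -0.56 (0.193). The globin genes Hba-a1 (1.28, adjusted p 0.0169), Hbb-bs (1.41, adjusted p 0.0114) and Hbb-bt (1.85, adjusted p 0.00524) were higher in NAc susceptible than in control pools, and without the same 3 arrays they were at 1.19 (adjusted p 0.0732), 1.44 (0.042) and 1.59 (0.042).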
